A study of Mus musculus with 13 samples.

Results

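The levels of 10 genes of the TGF-beta and BMP pathways were followed through mouse abdominal epidermis in pregnancy: the ligands Tgfb1, Tgfb2, Bmp2, Bmp4 and Bmp7, the target genes Tgfbi, Id1, Id2 and Id3, and Smad7, an inhibitory SMAD. They were chosen by name, as 10 of the 21950 genes of the bulk table and of the 28693 genes of the single-cell matrices, and all 10 were found in both. The bulk data were 9 libraries of sorted CD49f-positive, CD34-negative basal cells from C57BL/6 mice, with 3 libraries a group. The Tbx3 conditional knockout (cKO) group carried K14creERT2 and Tbx3flox/flox and was taken at gestation day 16 (dpc16). In K14creERT2 the keratin 14 promoter, active in basal keratinocytes, drives a Cre that tamoxifen switches on. The other groups were wild type (WT) mice at dpc16 and WT non-pregnant (NP) mice. Whether the WT mice of the bulk groups received tamoxifen, and how old any of the mice were, is not given in the sources used here. The single-cell data were 1 library of whole epidermis for each of 4 states, NP, dpc16, and days 6 and 40 after birth (dpp6, dpp40), all from tamoxifen-treated mice with Tbx3creERT2 and R26H2B EGFP on the C57BL/6 strain. No single-cell library of the cKO was among them.

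TGF-beta and BMP ligands bind paired serine/threonine kinase receptors, which phosphorylate receptor SMADs that enter the nucleus with SMAD4 and switch target genes. BMP signals act through SMAD1, SMAD5 and SMAD9 and are known for inducing the Id genes, whose products block basic helix-loop-helix factors, whereas TGF-beta signals act through SMAD2 and SMAD3 and induce matrix genes such as Tgfbi. In skin, TGF-beta is known for restraining keratinocyte division, and BMP signals for keeping hair follicle stem cells at rest and for promoting epidermal differentiation.

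Promoter sequence in the RefSeq table of GRCm38.p6, the assembly also called mm10, was found for 6 of the 10 genes: Tgfb1, Tgfb2, Bmp4, Tgfbi, Id2 and Id3. Bmp2, Bmp7, Id1 and Smad7 were not among them. The sequence upstream of Tgfbi is shown because Tgfbi was the one gene of the 10 that passed the test in bulk, and that of Tgfb2 because its level was the most unequal between classes of cells. The Tgfbi stretch is chr13:56609336-56609522 on the plus strand and ends at the base before the first base of the gene in GENCODE, which shortens the 250 bases before the RefSeq start by 63. The Tgfb2 stretch is chr1:186705990-186706239 on the minus strand, the 250 bases before the gene's start. Capitals mark GGCGCC, a GC-rich element known from BMP-responsive promoters, and GTCTG or its reverse complement CAGAC, a core of the SMAD binding element.
Tgfbi: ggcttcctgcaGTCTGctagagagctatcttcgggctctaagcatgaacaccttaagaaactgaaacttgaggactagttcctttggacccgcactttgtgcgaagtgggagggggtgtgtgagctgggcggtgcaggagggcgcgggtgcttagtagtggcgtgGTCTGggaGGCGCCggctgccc
Tgfb2: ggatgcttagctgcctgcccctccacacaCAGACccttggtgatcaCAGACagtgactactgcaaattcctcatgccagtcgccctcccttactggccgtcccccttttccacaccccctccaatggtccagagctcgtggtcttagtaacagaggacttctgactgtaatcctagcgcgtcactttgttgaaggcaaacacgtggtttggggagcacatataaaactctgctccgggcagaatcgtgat
The Tgfbi stretch held 1 match to GGCGCC and 2 to GTCTG, as did its full 250 bases, and the Tgfb2 stretch held 2 matches to CAGAC and none to GGCGCC. In the 250 bases before the start, Id2 held 1 GGCGCC and Id3 held 2 matches to GTCTG or CAGAC, while Tgfb1 and Bmp4 held neither element. Of 32851 RefSeq promoters read over the same 250 bases, 9.59% held GGCGCC and 42.2% held GTCTG or CAGAC on either strand. A match is a description of the letters and not evidence of binding.

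In bulk, the deposited values are FPKM, fragments scaled by transcript length and library size. Differences between groups are given on the log2(FPKM + 1) scale, which understates changes of genes with low FPKM, and p-values are from limma with Benjamini-Hochberg adjustment over the 11497 genes that averaged at least 1 FPKM. All 10 genes passed that filter. Tbx3 itself had 4.81, 1.65 and 4.89 FPKM in cKO basal cells, against 17.0, 15.3 and 23.0 FPKM in WT dpc16 and 8.96, 6.38 and 8.12 FPKM in NP basal cells. It was lower in the cKO than in WT dpc16 by a log2 difference of -2.09 (limma adjusted p 0.0124), in the direction the labels give; the part of Tbx3 that is removed is not given in the sources used here. The basal keratins Krt5, Krt14 and Krt15 were the leading basal markers. Krt14 was at 4260 to 7408 FPKM in cKO, 8206 to 8496 FPKM in WT dpc16 and 7563 to 11688 FPKM in NP libraries, and Krt15 at 7890 to 9892 FPKM in cKO, 8179 to 10779 FPKM in WT dpc16 and 8567 to 10721 FPKM in NP libraries. Cd34, a bulge stem cell marker used to exclude cells, was at most 2.23 FPKM in any library. Cd3e and Cd207, which define T cells and Langerhans cells, were at most 3.86 and 1.99 FPKM. Other markers on the bulge and Langerhans lists were higher. The bulge markers Postn and Ptn ran from 45.2 to 210 and from 16.5 to 87.3 FPKM over all libraries. The Langerhans markers Cd74 and H2-Eb1 ran from 7.06 to 31.1 and from 0.883 to 55.7 FPKM. A low Cd34 or Cd207 thus does not show that such cells were absent.

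Against WT dpc16, 1 of the 10 genes passed the test in cKO basal cells and it was Tgfbi. Of all genes tested in that comparison, 2.15% passed. Between WT dpc16 and NP none of the 10 passed by limma, where 0.13% of all genes did. In the secondary comparison of cKO with NP, which shares its libraries with the other comparisons, 1 of the 10 passed, again Tgfbi, beside 5.66% of all genes. An unadjusted p under 0.05 was given to 3, 1 and 2 of the 10 genes in these comparisons, beside 17.4%, 9.05% and 23.8% of all genes; the 1 between WT dpc16 and NP was Bmp2. Groups that did not overlap in any library were seen for 1, 1 and 2 of the 10 genes in these comparisons, beside 26.2%, 15.6% and 26.4% of all genes, so the share of the 10 with separate groups was no higher than the background.

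**Figure D1:**
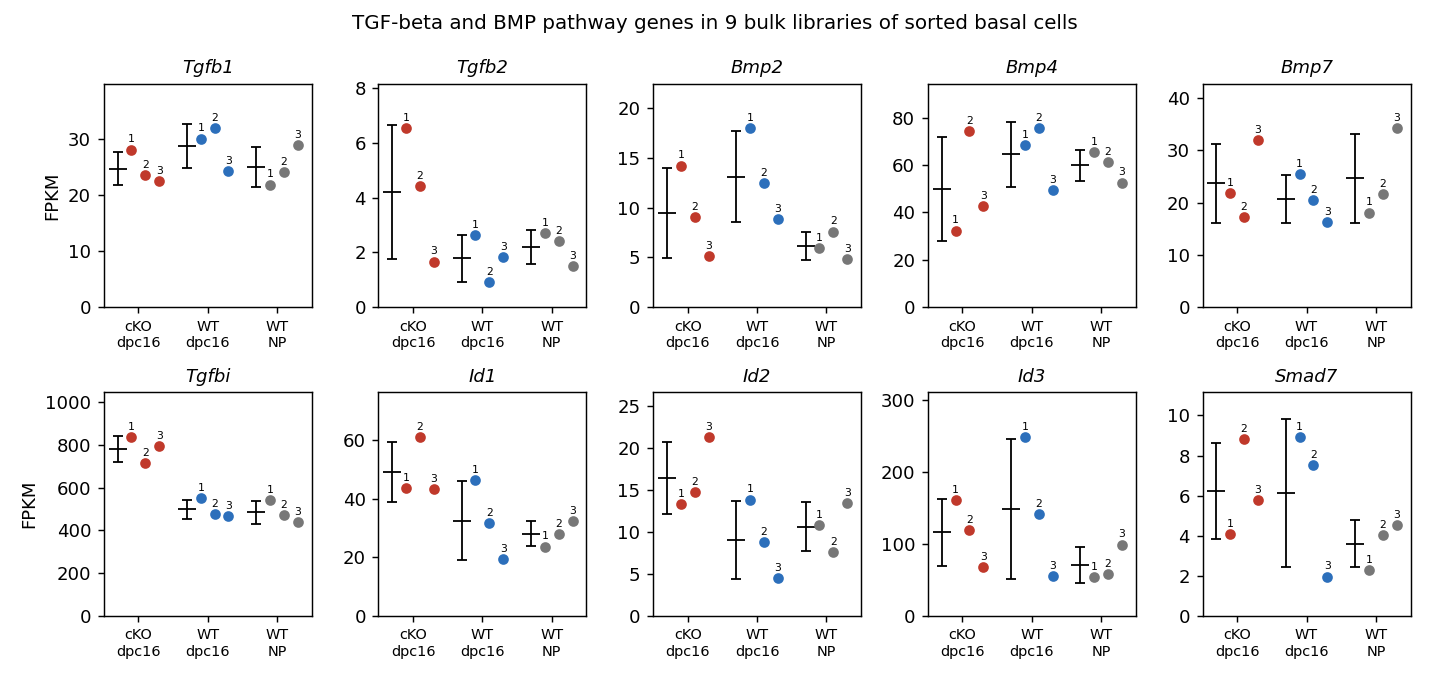
FPKM of the 10 genes in each of the 9 bulk libraries (numbered points), with the mean and SD of each group of 3 beside them; the y axis of each panel is linear and starts at 0. The 3 cKO libraries of Tgfbi, at 714 to 837 FPKM, lie above all 6 WT libraries, while every other gene overlaps between cKO and WT dpc16.

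Tgfbi encodes a secreted matrix protein that binds collagens and integrins and is named for its induction by TGF-beta. It lies at chr13:56609523-56639562 on the plus strand. It had 837, 714 and 793 FPKM in cKO basal cells, against 551, 476 and 467 FPKM in WT dpc16 and 542, 473 and 438 FPKM in NP basal cells. All 3 cKO libraries stood above all 6 WT libraries, and the WT groups overlapped. Tgfbi rose in the cKO by a log2 difference of 0.65 (SE 0.13, limma adjusted p 0.0360) against WT dpc16, a 1.57-fold ratio of means, and by 0.69 (limma adjusted p 0.0186) against NP. Between WT dpc16 and NP the log2 difference was 0.04 (limma adjusted p 0.956). The call against WT dpc16 was lost in 10 of 18 alternatives, among them leaving out any single cKO or WT dpc16 library, with adjusted p between 0.0298 and 0.147, while the log2 difference stayed between 0.60 and 0.72. The call against NP was lost in 3 of 18, with adjusted p between 0.0140 and 0.0698. Other measures moved with it: the summed FPKM of 8 spinous markers was 3897 to 5694 in cKO, 6247 to 15740 in WT dpc16 and 9259 to 11280 in NP libraries, and that of 12 basal markers was 23580 to 31790 in cKO, 33850 to 38080 in WT dpc16 and 31500 to 40340 in NP libraries. In these lists 1 of the 8 spinous markers passed in cKO against WT dpc16, Krt1, which fell (limma adjusted p 0.00943). Most of the sum of the 12 basal markers was Krt5, Krt14 and Krt15. Krt5 was at 5822 to 10254 FPKM in cKO and 12495 to 13027 FPKM in WT dpc16 (limma adjusted p 0.145). Cxcl14 was also lower in every cKO library, at 693 to 948 FPKM against 1106 to 1341 FPKM in WT dpc16. Itga6, Itgb4 and Trp63 overlapped between cKO and WT dpc16. The 2 of the 12 basal markers that passed went the other way from their list's sum. Dst, which encodes a hemidesmosome protein, had 718, 583 and 525 FPKM in cKO and 289, 271 and 288 FPKM in WT dpc16 (limma adjusted p 0.00608), and Ly6a had 753, 1097 and 715 FPKM in cKO and 334, 433 and 332 FPKM in WT dpc16 (limma adjusted p 0.0332). The summed FPKM of 7 infundibulum and upper follicle markers was 1092 to 1897 in cKO, 497 to 1064 in WT dpc16 and 912 to 3538 in NP libraries. None of the 7 passed in cKO against WT dpc16, the smallest limma adjusted p being 0.0711 for Krt80. Defb6, Krt80 and Cst6 were higher in every cKO library than in WT dpc16, and Krt79, Krt17 and Klk7 overlapped. Klk10 went the other way, at 8.48 to 18.0 FPKM in cKO and 18.6 to 21.1 FPKM in WT dpc16. The summed FPKM of the T cell markers, nearly all of it Thy1, was 121 to 644 in cKO, 671 to 855 in WT dpc16 and 307 to 603 in NP libraries. Thy1 is not particular to T cells here, as in the single-cell data below it was a leading gene of interfollicular basal cells. Cd3e and Cd3g overlapped between cKO and WT dpc16, at no more than 0.712 FPKM in either group. The fibroblast, endothelial and Merkel sums also did not overlap between cKO and WT dpc16, at no more than 4.68 FPKM in either group. The part of cell makeup in the Tgfbi difference was not tested, and in bulk RNA fewer cells of a type and less RNA per cell cannot be told apart.

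Id1, Id2 and Id3 encode inhibitors of basic helix-loop-helix transcription factors and are standard readouts of BMP signalling. Id1, at chr2:152736251-152737410 on the plus strand, had 43.6, 61.1 and 43.2 FPKM in cKO, against 46.4, 31.8 and 19.3 FPKM in WT dpc16 and 23.7, 28.0 and 32.3 FPKM in NP basal cells. Id2, at chr12:25093799-25097140 on the minus strand, had 13.3, 14.7 and 21.3 FPKM in cKO, against 13.8, 8.77 and 4.50 FPKM in WT dpc16 and 10.8, 7.58 and 13.4 FPKM in NP basal cells. Both were high in the cKO libraries with 1 WT dpc16 library reaching into the cKO range, and for Id1 the cKO and NP groups did not overlap. Neither passed the test: the log2 difference of cKO minus WT dpc16 was 0.65 (SE 0.29, limma adjusted p 0.274) for Id1 and 0.88 (SE 0.35, limma adjusted p 0.228) for Id2, and that of cKO minus NP was 0.79 (limma adjusted p 0.133) for Id1 and 0.59 (limma adjusted p 0.341) for Id2. Id3, at chr4:136143497-136145755 on the plus strand, had 161, 119 and 68.3 FPKM in cKO, against 249, 142 and 55.4 FPKM in WT dpc16 and 53.9, 58.2 and 99.1 FPKM in NP basal cells. Its values ranged widely within both dpc16 groups and all groups overlapped, with log2 differences of -0.19 (limma adjusted p 0.897) for cKO minus WT dpc16 and 0.88 (limma adjusted p 0.647) for WT dpc16 minus NP.

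Library 3 was the lowest of its group for 9 of the 10 genes in WT dpc16, Tgfb2 being the exception. In the cKO it was the lowest for 5 of the 10 (Tgfb1, Tgfb2, Bmp2, Id1 and Id3). The share of all genes lowest in these libraries was not counted, so the counts are not read as a trait of the 10 genes. Thbs1, which encodes thrombospondin 1, an activator of latent TGF-beta singled out after its values were seen, had 438, 289 and 33.8 FPKM in the cKO, against 505, 343 and 45.2 FPKM in WT dpc16 and 78.9, 168 and 68.1 FPKM in NP libraries. So Thbs1 and Id3 were both lowest in library 3 of each dpc16 group. These are separate libraries numbered by column order, and no label links them. Their part in the differences was not tested beyond leaving each out. Without cKO library 3 the Id3 difference of cKO minus WT dpc16 turned to 0.15. Without WT dpc16 library 3 the Smad7 difference turned to -0.40. Over all single libraries left out in turn, that Id3 difference ran from -0.77 to 0.30.

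Among the ligands, Tgfb1, the best known TGF-beta, was the most even, with 28.2, 23.6 and 22.5 FPKM in cKO, against 30.1, 32.0 and 24.4 FPKM in WT dpc16 and 21.9, 24.2 and 29.0 FPKM in NP basal cells. Tgfb2 had 6.53, 4.43 and 1.66 FPKM in cKO, against 2.63, 0.916 and 1.82 FPKM in WT dpc16 and 2.69, 2.42 and 1.48 FPKM in NP basal cells. A pair of cKO libraries exceeded every WT library for Tgfb2, and the third lay within the WT range; the log2 difference of cKO minus WT dpc16 was 0.82 (SE 0.40, limma adjusted p 0.322). Bmp2, at chr2:133552159-133562885 on the plus strand, had 14.2, 9.02 and 5.13 FPKM in cKO, against 18.0, 12.5 and 8.89 FPKM in WT dpc16 and 5.93, 7.59 and 4.80 FPKM in NP basal cells. All WT dpc16 libraries lay above all NP libraries, and the cKO libraries spanned both ranges. The log2 difference of WT dpc16 minus NP was 0.96 (SE 0.35, limma adjusted p 0.396), and that of cKO minus WT dpc16 was -0.48 (limma adjusted p 0.525).

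Bmp4, a ligand of the BMP2 and BMP4 subgroup, had 32.3, 74.3 and 42.8 FPKM in cKO, against 68.6, 75.6 and 49.4 FPKM in WT dpc16 and 65.6, 61.3 and 52.6 FPKM in NP basal cells. Bmp7 had 21.7, 17.3 and 32.0 FPKM in cKO, against 25.5, 20.5 and 16.3 FPKM in WT dpc16 and 18.1, 21.6 and 34.2 FPKM in NP basal cells. For both, all 3 groups overlapped, with log2 differences of cKO minus WT dpc16 of -0.43 for Bmp4 (limma adjusted p 0.470) and 0.16 for Bmp7 (limma adjusted p 0.831). Per length and averaged over libraries, Bmp4 was the highest of the 5 ligands in each group, at 49.8 ± 21.9 FPKM in cKO, 64.5 ± 13.6 FPKM in WT dpc16 and 59.8 ± 6.6 FPKM in NP basal cells (SD, n = 3 each). Smad7, which recruits ubiquitin ligases to the receptors and so damps the signal, had 4.08, 8.80 and 5.78 FPKM in cKO, against 8.92, 7.53 and 1.96 FPKM in WT dpc16 and 2.28, 4.02 and 4.52 FPKM in NP basal cells. Its groups overlapped throughout, and the log2 difference of cKO minus WT dpc16 was 0.14 (limma adjusted p 0.919).

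**Figure D2:**
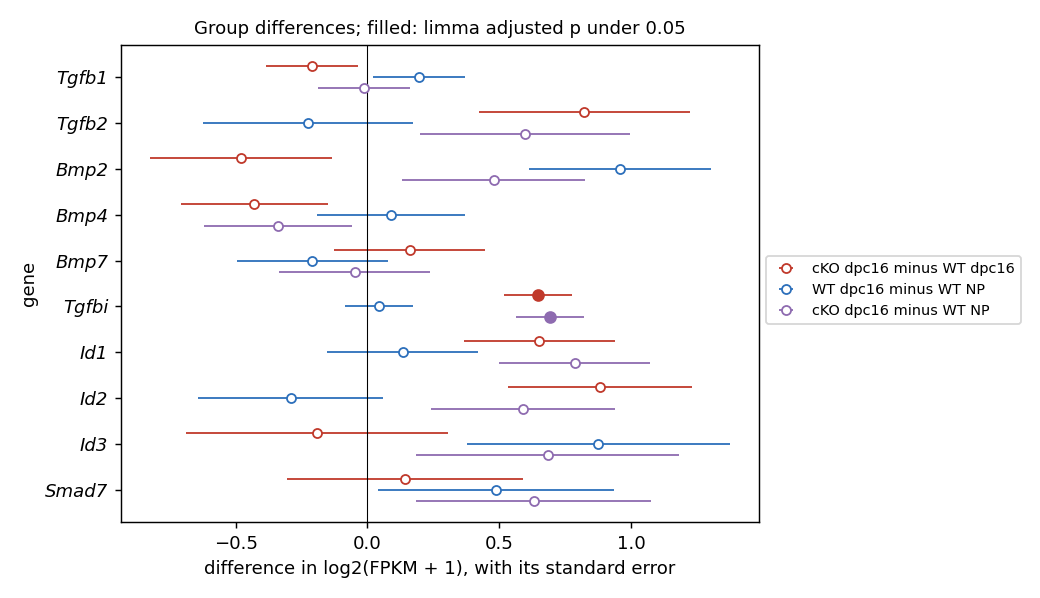
Difference in log2(FPKM + 1) with its standard error for each gene, for cKO minus WT dpc16, WT dpc16 minus NP and cKO minus NP; filled points have a limma adjusted p under 0.05. Only the Tgfbi points against WT dpc16 (0.65) and against NP (0.69) are filled, and the Tgfbi error bars are the shortest of the plot.

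Of 89 further genes of the pathways, listed by role, 61 passed the filter. In the cKO against WT dpc16, 2 of the 61 rose and 0 fell, where 2.15% of all genes passed, with a median log2 difference of 0.14 beside 0.01 over all genes tested. Crim1, a transmembrane protein that binds BMPs, had 71.7, 56.5 and 41.6 FPKM in cKO, against 27.1, 24.2 and 21.7 FPKM in WT dpc16 and 28.9, 26.4 and 28.6 FPKM in NP basal cells. Ctgf, a secreted matrix-associated protein induced by TGF-beta, had 54.9, 19.7 and 40.1 FPKM in cKO, against 10.4, 8.11 and 7.22 FPKM in WT dpc16 and 7.61, 17.5 and 19.9 FPKM in NP basal cells. For both, all cKO libraries stood above all WT dpc16 libraries, by log2 differences of 1.16 for Crim1 (limma adjusted p 0.0202) and 1.93 for Ctgf (limma adjusted p 0.0419). The Crim1 call was lost in 7 of 18 alternatives (adjusted p 0.00749 to 0.0848) and the Ctgf call in 9 of 18 (0.0284 to 0.146), leaving out any single WT dpc16 library among them. Next in order of p, the matrix gene Fn1 had a log2 difference of 1.31 (limma adjusted p 0.0771) and Klf10, an early TGF-beta response gene, one of -0.93 (limma adjusted p 0.0785); neither passed.

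By role, the receptors gave 9 of 11 differences of cKO minus WT dpc16 above 0 and 5 of 11 with groups that did not overlap, with none past the threshold by limma and 5 at an unadjusted p under 0.05. Of all genes, 26.2% did not overlap and 17.4% had an unadjusted p under 0.05 in that comparison. The other ligands gave 3 of 5 above 0, the SMADs 3 of 5, the antagonists 5 of 10, the genes of latency and activation 7 of 9, the nuclear and feedback regulators 3 of 10 and the other targets 6 of 11. Over all genes 50.8% were above 0. In WT dpc16 against NP, 0 of the 61 passed by limma and 9 had an unadjusted p under 0.05, of which 3 were higher and 6 lower at dpc16; of all genes 9.05% had such a p, 427 higher and 613 lower. The first of these was Bmpr1b, a type I BMP receptor, with 6.13, 6.60 and 4.54 FPKM in cKO, against 3.67, 2.97 and 3.34 FPKM in WT dpc16 and 1.18, 0.79 and 0.47 FPKM in NP basal cells. Its 3 groups did not overlap, with the order cKO, WT dpc16, NP. The log2 difference was 1.27 for WT dpc16 minus NP (limma adjusted p 0.117) and 0.63 for cKO minus WT dpc16 (limma adjusted p 0.213). Fn1 (-1.63), the extracellular binding protein Fstl1 (-1.20) and the ligand Bmp3 (-0.83) followed, all lower in every WT dpc16 library than in every NP library and none past the threshold (limma adjusted p 0.141, 0.246 and 0.259).

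In the cKO against NP, 2 of the 61 rose and 1 fell, where 5.66% of all genes passed. Bmpr1b rose by a log2 difference of 1.90 (limma adjusted p 0.00510) and kept its call in all 17 alternatives in which it was tested. Crim1 rose by 0.96 (limma adjusted p 0.0267, lost in 7 of 18). Sostdc1, a secreted antagonist of BMP and Wnt ligands, fell to 14.4, 25.7 and 44.1 FPKM in cKO, against 49.7, 45.5 and 35.1 FPKM in WT dpc16 and 67.0, 92.2 and 142 FPKM in NP basal cells. Its log2 difference of cKO minus NP was -1.87 (limma adjusted p 0.0241, lost in 6 of 18), and that of WT dpc16 minus NP was -1.14 (limma adjusted p 0.362). Tgfbr3, the co-receptor betaglycan, followed at 0.90 (limma adjusted p 0.0620) without passing.

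The single-cell libraries showed which cells of the epidermis held each transcript. After filtering, 6491 NP, 12853 dpc16, 9031 dpp6 and 8552 dpp40 cells were kept, with 4448 to 5638 UMIs per cell in the median, and the study states 6485, 12846, 9029 and 8552 cells. Any 2 libraries shared 70 to 147 cell barcodes, at most 1.74% of the smaller library. Cells were clustered without the 10 genes, and clusters were named only where their leading genes held markers of a cell type; the others are called by their leading genes. Levels are CPM, the UMIs of a gene per 1000000 UMIs of all genes, summed over the cells of a class. With 1 library a state there is no test, and the 95% exact Poisson intervals cover counting error only. The values describe 16 classes of at least 50 cells, and as counts are not scaled by length they are compared within a gene and not between genes.

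**Figure D3:**
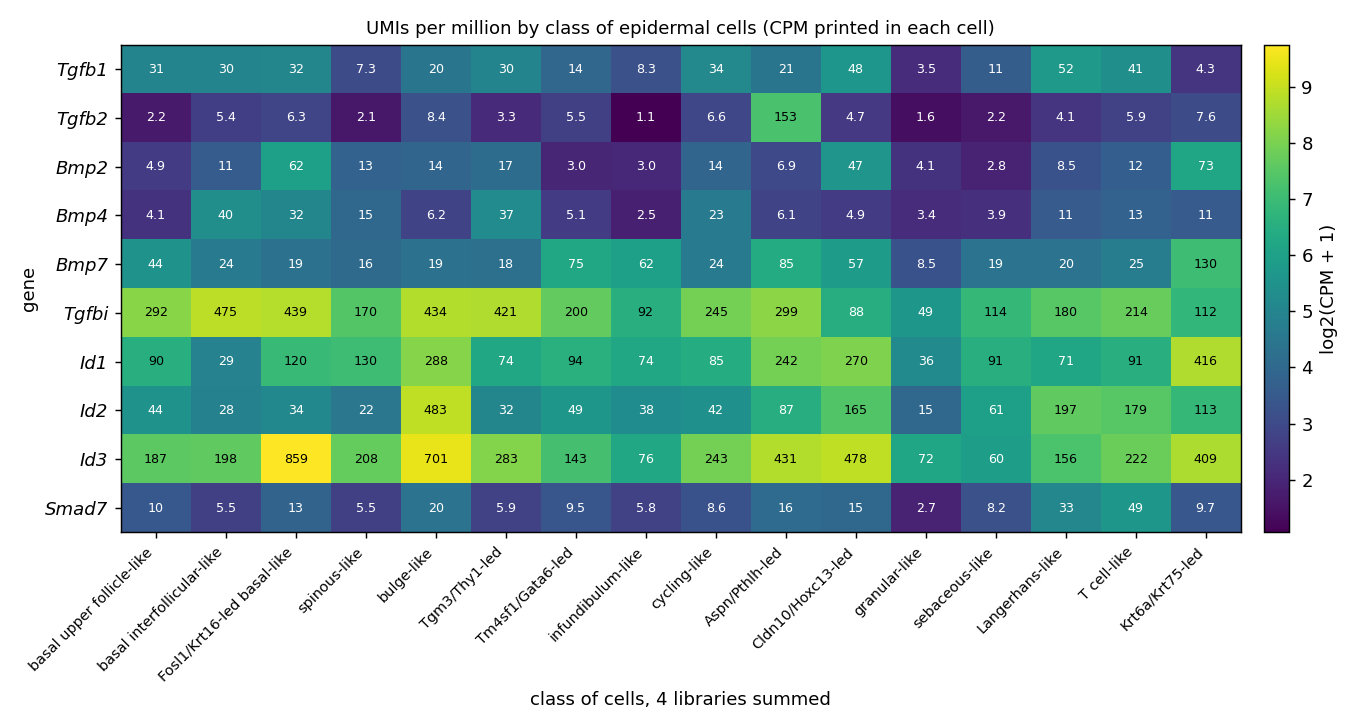
CPM of the 10 genes (rows) in 16 classes of epidermal cells (columns), 4 libraries summed, with colour on the log2(CPM + 1) scale. Tgfb2 stands out in 1 class at 153 CPM, Id2 in the bulge-like class at 483 CPM, and Id1 stands at 28.8 CPM in the basal interfollicular-like class.

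Tgfb2 was the most unequal of the 10. It reached 153 CPM (143 to 164) in a keratinocyte class led by Aspn and Pthlh, against 8.40 CPM (7.12 to 9.86) in the next class, the bulge-like cells, an 18.2-fold ratio. That class was 3.04% of the cells counted and held 49.5% of the Tgfb2 UMIs, and it was the highest class in each of the 4 libraries, with 132 CPM at NP, 66.4 CPM at dpc16, 192 CPM at dpp6 and 199 CPM at dpp40. In the coarser clustering the class led by these genes was again the highest, at 94.4 CPM. Among the other 15 classes Tgfb2 stayed between 1.09 and 8.40 CPM, and most neighbours in that order had overlapping intervals. Tgfb1 was spread more evenly over the basal classes, at 30.4 CPM in basal interfollicular-like and 30.6 CPM in basal upper follicle-like cells, and stood at 7.25 CPM in spinous-like and 3.52 CPM in granular-like cells. Its highest classes were Langerhans-like cells at 52.4 CPM, cells led by Cldn10 and Hoxc13 at 48.3 CPM and T cell-like cells at 40.6 CPM, and these 3 had overlapping intervals.

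The BMP ligands differed in their highest classes. Bmp4 was highest in the interfollicular basal classes, at 39.8 CPM (36.8 to 43.0) in basal interfollicular-like cells, 36.7 CPM in cells led by Tgm3 and Thy1 and 32.4 CPM in basal-like cells led by Fosl1 and Krt16. In NP and dpc16 the Tgm3 and Thy1 class was the highest, at 46.1 and 35.5 CPM. Bmp4 was 4.08 CPM in basal upper follicle-like and 6.23 CPM in bulge-like cells. Bmp7 was highest in other classes, with 130.5 CPM in Krt6a and Krt75, 84.5 CPM in Aspn and Pthlh and 74.9 CPM in Tm4sf1 and Gata6 cells. It was 61.6 CPM in infundibulum-like and 44.3 CPM in basal upper follicle-like cells, against 24.4 CPM in basal interfollicular-like cells. In bulge-like cells Bmp7, like Bmp4, was lower than in basal interfollicular-like cells, at 18.9 CPM. The Krt6a and Krt75 class held 167 cells, reached 50 cells in the dpp6 library only and was not separate in the coarser clustering, where Bmp7 was highest in the Aspn and Pthlh class at 79.1 CPM. Across 59 points of class and library the Pearson correlation of Bmp4 with Bmp7 was -0.30, the lowest of the pairs among the 10 genes. Points of 1 library share its depth and points of 1 class share a kind of cell, so the points are not independent. Bmp2 was highest in the Krt6a and Krt75 class at 73.4 CPM (57.0 to 93.0) and in the Fosl1 and Krt16 class at 61.8 CPM (58.0 to 65.8), whose intervals overlapped. The Fosl1 and Krt16 class was 7.45% of the cells and held 29.1% of the Bmp2 UMIs.

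Among the target genes, Tgfbi was highest in basal interfollicular-like cells, at 475 CPM (464 to 485). It was 439 CPM in Fosl1 and Krt16, 434 CPM in bulge-like and 421 CPM in Tgm3 and Thy1 cells. It was lower, at 299 CPM in Aspn and Pthlh, 292 CPM in basal upper follicle-like and 245 CPM in cycling-like cells. It stood at 170 CPM in spinous-like and 49.1 CPM in granular-like cells, so the level was lower in the differentiated classes, as was that of the basal keratin Krt14 (8265 CPM in basal interfollicular-like, 1820 CPM in spinous-like and 735 CPM in granular-like cells). Id1 was highest in the Krt6a and Krt75 class at 416 CPM (376 to 460) and next in bulge-like cells at 288 CPM (280 to 296), which were the highest class in NP, at dpc16 and at dpp40 and in the coarser clustering. It was 28.8 CPM (26.3 to 31.5) in the basal interfollicular-like class, with 23.0 CPM in NP, 51.7 CPM at dpc16, 37.1 CPM at dpp6 and 24.8 CPM at dpp40, so the pooled value rests mostly on the other states than dpc16. Spinous-like cells held 130 CPM of Id1 and the Fosl1 and Krt16 class 120 CPM, and their order was not the same in every library. Id2 was concentrated in bulge-like cells at 483 CPM (473 to 493), which were 10.7% of the cells and held 49.1% of its UMIs, against 28.3 CPM in basal interfollicular-like cells. Id3 was highest in the Fosl1 and Krt16 class at 859 CPM (845 to 874) and next in bulge-like cells at 701 CPM (688 to 713), whose intervals did not overlap; at dpp6 bulge-like cells were the higher of them, with overlapping intervals.

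Smad7 was low in all keratinocyte classes, from 2.68 CPM in granular-like to 19.9 CPM in bulge-like cells. T cell-like cells held 49.0 CPM (39.8 to 59.6) and Langerhans-like cells 32.8 CPM (27.3 to 39.0). Both immune classes also held much keratinocyte RNA, with Krt14 at 3626 CPM in T cell-like and 2619 CPM in Langerhans-like cells, so a gene at a keratinocyte level there is read as background. At 2000 UMIs per cell, Smad7 was found in 10.9% of T cell-like, 7.88% of Langerhans-like and 1.08% of basal interfollicular-like cells, and Id2 in 29.8%, 30.3% and 5.06% of them. The order of Smad7 and Id2 above the basal class was thus the same in shares of cells and in CPM. In bulge-like cells at that depth, Smad7 was found in 4.06% and Id2 in 53.3% of cells. Id2 was therefore higher in this keratinocyte class than in both immune classes.

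By likeness of pattern over the same 59 points, among 4876 genes with enough counts, the genes nearest to the targets were Col17a1 and Ackr4 for Tgfbi (Pearson r 0.93 for each), Ctnnb1 (0.78) and Degs1 (0.77) for Id1, Cyba (0.87) and S100a4 (0.83) for Id2, and Creb5 (0.90) and Palld (0.86) for Id3. Nearest to the ligands were Tln1 (0.87) and Itgb1 (0.86) for Tgfb1, Robo2 (0.83) and Lpar1 (0.77) for Tgfb2, Thbs1 (0.81) and Id3 (0.76) for Bmp2, Trim47 (0.88) and 1700025G04Rik (0.87) for Bmp4, and Lifr (0.84) and Ift43 (0.80) for Bmp7. Smad7 was nearest to Bin1 (0.87) and Vgll4 (0.85). The closest pairs among the 10 genes were Id2 with Smad7 (0.79) and Bmp2 with Id3 (0.76). These correlations describe classes of cells and carry no test.

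Of the 89 further pathway genes, 25 reached 50 CPM in at least 1 class, and 8 of the 25 were highest in bulge-like cells: Smad1, Grem1, Crim1, Nbl1, Ltbp3, Itgav, Ski and Ctgf. The share of all genes highest in that class was not counted. Aspn and Pthlh cells were close behind for Ski (52.1 against 51.7 CPM), Itgav (53.3 against 48.0), Crim1 (135.9 against 128.4) and Grem1 (190 against 172). Cldn10 and Hoxc13 cells were close behind for Smad1 (66.3 against 64.8 CPM). The next class was further below for Nbl1, Ltbp3 and Ctgf. Grem1 and Nbl1 encode secreted BMP antagonists, and they had 190 and 353 CPM in bulge-like cells, where Id1, Id2 and Id3 were also high. A further 4, Thbs1, Tgif1, Cyr61 and Klf10, were highest in the Fosl1 and Krt16 class, in which Bmp2 and Id3 were high, with Thbs1 at 545 CPM and Cyr61 at 941 CPM. Tgfb3 and the antagonist Fst were highest in the Aspn and Pthlh class, beside Tgfb2, at 54.7 and 1171 CPM. Thbs1 was among the 10 leading genes of the Fosl1 and Krt16 class, and Fst among those of the Aspn and Pthlh class. Their rank there thus repeats how these classes were described. Sostdc1 was highest in basal upper follicle-like cells at 1219 CPM, a class that the marker list used it to name. The other 10 were highest in 7 further classes: Gata3 in basal interfollicular-like, Bmpr2 in infundibulum-like, Smad5 in Cldn10 and Hoxc13, Zfyve9 and Id4 in granular-like, Tgfbr3 and Bmpr1a in sebaceous-like, Bambi and Tsc22d1 in Langerhans-like and Furin in T cell-like cells.

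Across states, in whole epidermis, 3 of the 10 genes at dpc16 stood more than 1.5-fold above NP and 1 stood as far below, beside 8.8% of all genes past that size in either direction. At dpp6 3 of the 10 stood above and 0 below (5.09% of all genes), and at dpp40 1 above and 0 below (2.51%). Id3 was past that size in each state, at 189 CPM in NP, 305 CPM at dpc16, 326 CPM at dpp6 and 285 CPM at dpp40. Id1 stood at 84.6, 127, 144 and 101 CPM in the same order of states, past 1.5-fold at dpc16 and dpp6. Id2 stood at 68.8, 55.0, 124 and 63.9 CPM, and only its dpp6 value was past 1.5-fold. Bulge-like cells, the class highest in Id2, were 10.6% of NP, 4.98% of dpc16, 19.8% of dpp6 and 9.81% of dpp40 cells, and within that class Id2 stood at 470, 436, 580 and 368 CPM. The bulge marker Cd34 in whole epidermis ran in the same order of states as Id2, at 50.6, 25.8, 97.4 and 41.6 CPM.

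Bmp2 stood at 10.3 CPM in NP, 18.6 CPM at dpc16, 13.2 CPM at dpp6 and 14.4 CPM at dpp40, a ratio to NP of 1.81 at dpc16. The Fosl1 and Krt16 class, high in Bmp2, was 8.54% of dpc16 and 4.33% of NP cells, and within it Bmp2 stood at 73.8 CPM at dpc16 and 56.9 CPM in NP. Tgfb2 was the 1 gene more than 1.5-fold lower at dpc16 than in NP. It stood at 7.19 CPM in NP, 3.70 CPM at dpc16, 10.7 CPM at dpp6 and 8.95 CPM at dpp40. The Aspn and Pthlh class was 2.05% of dpc16 and 3.68% of NP cells, and its own Tgfb2 level was also lower at dpc16. The shares of cells depend on what the dissociation released, so the part of cell makeup in these levels was not tested. Tgfbi was level, at 262, 262, 258 and 243 CPM in NP, dpc16, dpp6 and dpp40.

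**Figure D4:**
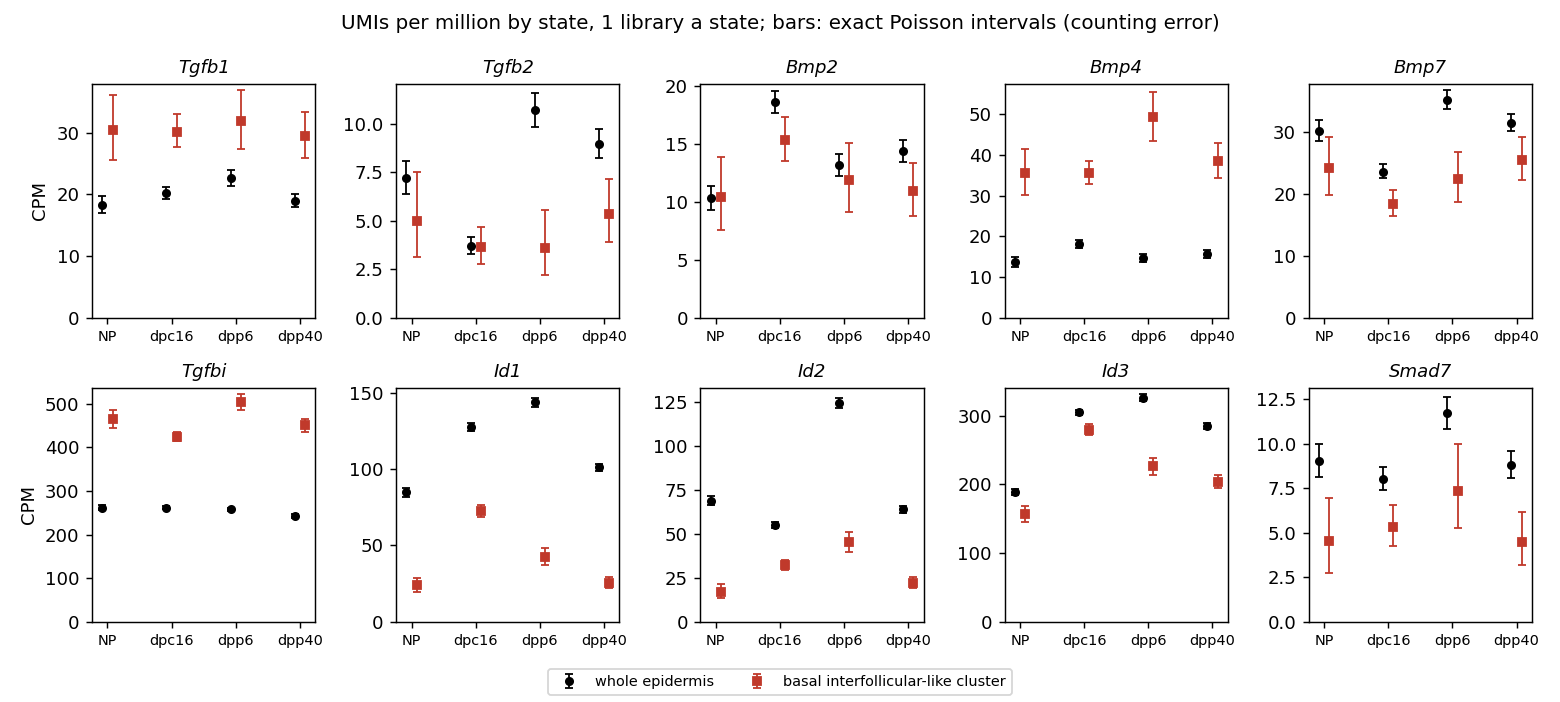
CPM of the 10 genes in 4 states, 1 library each, in whole epidermis (circles) and in the basal interfollicular-like cluster of the coarser clustering (squares), with 95% exact Poisson intervals for counting error; each y axis starts at 0. In the basal cluster Id1 stands at 23.9 CPM in NP, 72.5 CPM at dpc16, 42.7 CPM at dpp6 and 25.7 CPM at dpp40.

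The basal interfollicular cells of dpc16 fell largely in other fine clusters than those of NP. At the finer resolution 1.44% of dpc16 cells and 12.5% of NP cells were in the basal interfollicular-like class, while 30.4% of dpc16 and 2.25% of NP cells were in the class led by Tgm3 and Thy1, which had Krt14 at 8533 CPM and Cd3e at no more than 2.2 CPM in either of its clusters, against 546 CPM of Cd3e in T cell-like cells. States were therefore compared in the coarser cluster that holds both. In it 9 of the 10 genes reached the 5 CPM needed for a comparison, Tgfb2 being the exception. At dpc16 3 of the 9 stood more than 1.5-fold above NP and 0 below (11.5% of all genes past that size), at dpp6 3 above and 0 below (8.57%), and at dpp40 0 (6.99%).

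In the coarser basal cluster Id1 stood at 23.9 CPM (19.6 to 29.0) in NP, 72.5 CPM (68.4 to 76.7) at dpc16, 42.7 CPM (37.5 to 48.5) at dpp6 and 25.7 CPM (22.4 to 29.4) at dpp40. Id2 stood at 16.9, 32.2, 45.1 and 22.0 CPM in the same order, and Id3 at 157, 279, 226 and 204 CPM. So Id1 and Id3 were highest at dpc16 and Id2 at dpp6, and at dpp40 the Id1 interval overlapped that of NP. Within the fine basal cluster that all 4 states share, which holds 185 dpc16 cells, Id1 was 51.7 CPM at dpc16 and 23.0 CPM in NP, and Id3 was 239 CPM at dpc16 and 159 CPM in NP. In the Fosl1 and Krt16 class Id1 was 162 CPM at dpc16 and 80.8 CPM in NP. Spinous-like cells of the coarser clustering had 176 CPM of Id1 at dpc16 and 79.7 CPM in NP. Bulge-like cells, the class highest in Id1 in both states, did not share the rise, at 242 CPM at dpc16 and 268 CPM in NP. Smad7 was past 1.5-fold at dpp6 on 41 UMIs at dpp6 and 20 in NP, with overlapping intervals. Tgfb1 (30.5, 30.2, 32.0 and 29.5 CPM) and Bmp4 (35.5, 35.5, 49.2 and 38.5 CPM) stood at like levels in NP and dpc16.

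Other genes moved with the Id genes in that cluster. Thbs1 stood at 78.4 CPM at dpc16 and 26.4 CPM in NP, the immediate early gene Fos at 2318 CPM at dpc16 and 1627 CPM in NP, and Krt14 at 8583 CPM at dpc16 and 6290 CPM in NP; Thbs1 and Fos were chosen after their values were seen. At dpp40, where Id1 was near its NP level, Fos was 2901 CPM and Thbs1 71.4 CPM. The part of these in the Id levels was not tested. The sorted basal cells in bulk, from other mice with other genotypes, had log2 differences of WT dpc16 minus NP of 0.13 for Id1 (limma adjusted p 0.934), -0.29 for Id2 (limma adjusted p 0.855) and 0.88 for Id3 (limma adjusted p 0.647), so the differences in the single-cell libraries had no counterpart past the threshold in bulk.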

How the data were processed

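The bulk part comprised 9 libraries of sorted basal cells and the single-cell part 4 libraries of whole epidermis. The authors deposited the bulk values as FPKM for 21950 genes in 1 table. Cuffdiff, Cufflinks 2.2.1, TopHat2, cutadapt 1.14 and the build mm10 are named, with no role or order, in the submitters' processing notes. Libraries were made with a stranded kit, per the labels' protocols; the sources used here give neither the strand setting nor the annotation nor the depth behind the FPKM, so no interval for counting error is given in bulk. The single-cell files hold raw UMI counts as deposited by the authors, in matrices of 28693 genes, with Cell Ranger 2.2.0 named in the submitters' processing notes. WT dpc16 was assigned by exclusion to columns headed only WT, as NP and the cKO have headings of their own, and libraries are numbered by column order. Whether replicate libraries stem from different mice is not stated in the labels; the p-values thus reflect library-to-library spread only, and that may be technical.

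Bulk values were taken as log2(FPKM + 1), with a pseudocount of 1. Genes averaging 1 FPKM or more, 11497 in all, were fitted with limma 3.58.1 in R 4.3.3 as 3 group means over 9 libraries, with moderated variances that follow a trend on the mean; tests were two-sided at a Benjamini-Hochberg adjusted p of 0.05. The fit was tested on simulated data. The wider list of 89 pathway genes names, in each comparison, every gene past the threshold and otherwise those of smallest p. All 10 genes, the lists, the markers and the tests were chosen with earlier results of these data known. Filtering on 200 or more genes and no more than 10% mitochondrial UMIs left 36927 single cells, with 39767733 to 74289307 UMIs per library. They were clustered with scanpy 1.11.5 on 2000 variable genes without the 10 genes, 30 principal components, 15 neighbours and the Leiden method at resolution 1 (25 clusters) or 0.5 (16 clusters). No doublet caller was run and no doublets were removed. A gene entered a comparison of states at a mean of 5 CPM or more, and genes reaching 50 CPM in 1 point of class and library were ranked by Pearson correlation. Shares of cells were taken after thinning each cell to 2000 UMIs. Alternatives were the pseudocount, the filter, the scaling, the samples in the fit, the trend, the replicate number and each library left out in bulk, and the cell filters, the resolution and the way of averaging in single cells. Promoters are from RefSeq for GRCm38.p6 and gene positions from GENCODE release M21 of the same assembly.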

Additional observations from a re-analysis of the deposited data

How the results depend on the processing

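The 3 comparisons were refitted under 18 alternatives, which gave 537 values for the 10 genes, of which 505 kept their direction and side of the threshold, 13 lost a call and 19 reversed. For cKO against WT dpc16, the count of the 10 genes past the threshold was 1, and became 0 without the filter on low FPKM, with the 6 libraries of the comparison only and without a trend; it ran from 0 to 1 when single libraries were left out, reaching 1 only without NP library 1 or 3. For cKO against NP it was 1, became 0 with 6 libraries only, and ran from 0 to 1 with libraries left out (0 without cKO library 1 or NP library 2). Of the wider list, 2 genes passed for cKO against WT dpc16; this became 0 without the filter, 1 with 6 libraries, 1 without a trend and 1 with the replicate number as a block, and ran from 0 to 3 with libraries left out. For cKO against NP, 3 passed, 1 without the filter and 1 with 6 libraries, and 1 to 4 with libraries left out. The replicate numbers were not taken as a pairing. Between cKO and WT dpc16, same-numbered deviations correlated at 0.069 to 0.36, 2 of 3 over 0.1, and 5 of 6 libraries correlated best with their own number, a hint from the data and not the design; the other groups gave -0.21 to 0.039 against NP. The block changed no count of the 10 genes. No count for WT dpc16 against NP moved from 0. Fewer libraries or more genes tested enter by the construction of these alternatives; the cause of the other losses was not tested.

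Reversals were all of differences that had not passed. With libraries left out, cKO minus WT dpc16 ran from -0.072 to 0.36 for Bmp7, -0.77 to 0.30 for Id3 and -0.40 to 0.47 for Smad7. WT dpc16 minus NP ran from -0.44 to 0.021 for Tgfb2, -0.034 to 0.27 for Bmp4, -0.40 to 0.046 for Bmp7, -0.031 to 0.13 for Tgfbi, -0.16 to 0.45 for Id1 and -0.63 to 0.085 for Id2. Differences of cKO minus NP ran from -0.11 to 0.095 for Tgfb1 and -0.28 to 0.21 for Bmp7, and for Tgfb1 the difference of cKO minus NP was 0.00157 with quantile normalization and 0.012 with median-ratio rescaling. In single cells, 7 of 140 levels moved by over 1.5-fold at resolution 0.5: Tgfb2, Bmp2 and Bmp4 in the Aspn and Pthlh class (0.62, 0.59 and 0.64 of the finer value) and in the infundibulum-like class (1.79, 2.13 and 1.51 times), and Id1 in the basal interfollicular-like class (1.75 times). So moved 2 of 210 with at least 500 genes per cell, both in 17 erythroid-like cells, 3 of 210 with the mean of each cell's CPM and 3 of 210 without the 5% of cells with the most UMIs. Tgfb2, Bmpr1b and Fstl1 averaged under 5 FPKM and have no value under that stricter filter. At most 20% mitochondrial UMIs moved 0 of 40 whole-library levels; levels by class were not run there, as the added cells carry no class.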
